A study of Mus musculus with 12 samples.

Results

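The genes of cholesterol and fatty acid synthesis were followed in RNA-sequencing counts of 12 mouse pre-B cell lines. They are 32 genes of a table of 51826, chosen by name as enzymes of the sterol and fatty acid routes or as regulators of the SREBP pathway, and all 32 were among the 15038 genes that passed the filter on low counts. Bone marrow cells of 2 C57BL/6 mice were grown for 7 days with IL7, the cytokine on which normal pre-B cells depend, and were transduced with a retroviral vector that was either empty (EV) or carried BCR-ABL1, the fusion kinase of Philadelphia chromosome-positive leukaemia. All lines stayed in IL7 for 48 h. IL7 was then withheld from the 6 BCR-ABL1 lines for 1 week. The 6 EV lines went on with IL7 until they were sorted by the GFP of the vector. Each mouse gave 3 lines of each condition, named 1A to 1C and 2A to 2C after the mouse and a letter. Presence of BCR-ABL1 and absence of IL7 therefore coincided in every line and cannot be told apart. The sort is described for the EV lines only, so it cannot be told apart from the condition either. With 2 donor animals, the lines of a mouse share their source.

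Total counts ranged from 34791011 to 66011225 per line. The 10 B lineage markers examined were expressed in every line, with summed levels between 2490 and 4360 CPM (counts scaled to library size) for EV lines and between 2700 and 3450 CPM for BCR-ABL1 lines. Markers of other cell types were near 0, since lists for stromal cells and adipocytes, erythroid cells, mast cells and basophils, T and NK cells, and myeloid cells each summed to at most 1.77 CPM in any line. The T and NK list was lower with BCR-ABL1, at 0.36 to 1.44 CPM against 0.0304 to 0.115 CPM, and of its 6 genes only Cd3d passed the filter. Between the conditions, fewer molecules in each cell and fewer cells that express a gene cannot be told apart in such bulk RNA.

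Cells build cholesterol from acetyl-CoA. The mevalonate segment makes isoprenoid units, squalene is formed and oxidised, and the ring product lanosterol is trimmed to cholesterol. Fatty acids start from the same acetyl-CoA, which is carboxylated, assembled into palmitate, elongated and desaturated. Both routes are classical targets of the SREBP transcription factors, which SCAP escorts from the endoplasmic reticulum and INSIG proteins retain there when sterols are plentiful. Dividing lymphocytes draw on both routes for membrane.

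Of 32 members, 25 had at least 1 RefSeq promoter window (GRCm38.p6) of 250 bases before to 50 bases after an annotated start. No window was available for Fdps, Fdft1, Sqle, Stard4, Scd1, Scd2 and Fads1, so their promoters were not searched. The letters of the sterol regulatory element, TCACNCCAC, occurred on either strand for 1 of these 25 members (4%), against 1.44% of the 27025 genes with a window. A gene with several windows was counted if any of them matched. The E-box CACGTG, whose letters SREBP proteins can also bind, occurred in 5 (20% against 8.09%), CCAAT in 20 (80% against 41.1%) and the GC box GGGCGG in 21 (84% against 38.2%). Such matches describe letters and are no evidence of a bound site. The stretches below end before the first transcribed base of the gene in RefSeq and GENCODE. Hmgcs1 is the only one of the 25 members with letters of the sterol regulatory element in a window. Insig1 is a feedback regulator with an E-box. The last 2 stretches, of Idi1 and Elovl6, hold none of the 4 motifs. Idi1 rose, and the call of Elovl6 depended on the model and on EV line 2C. Opposite-strand transcripts are annotated over parts of these last stretches. Capitals mark motif letters on either strand.
Hmgcs1, chr13:119690151-119690350, plus strand: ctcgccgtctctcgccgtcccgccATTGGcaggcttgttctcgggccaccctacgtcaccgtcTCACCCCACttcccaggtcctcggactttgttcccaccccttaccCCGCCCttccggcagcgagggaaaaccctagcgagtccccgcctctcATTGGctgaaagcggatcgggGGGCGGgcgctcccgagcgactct
Insig1, chr5:28071163-28071362, plus strand: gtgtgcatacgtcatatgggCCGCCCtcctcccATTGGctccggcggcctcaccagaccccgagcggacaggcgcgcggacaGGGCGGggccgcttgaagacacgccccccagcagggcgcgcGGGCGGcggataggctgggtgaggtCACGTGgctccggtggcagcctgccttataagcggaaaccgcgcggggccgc
Idi1, chr13:8885356-8885500, plus strand: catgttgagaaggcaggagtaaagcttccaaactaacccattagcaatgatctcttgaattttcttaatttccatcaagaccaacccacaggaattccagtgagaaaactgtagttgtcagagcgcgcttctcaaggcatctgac
Elovl6, chr3:129532155-129532354, plus strand: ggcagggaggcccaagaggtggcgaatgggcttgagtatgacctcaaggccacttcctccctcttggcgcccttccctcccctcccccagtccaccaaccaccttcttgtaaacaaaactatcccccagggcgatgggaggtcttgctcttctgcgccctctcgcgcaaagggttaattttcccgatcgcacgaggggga
In the Hmgcs1 stretch TCACCCCAC begins 137 bases before the start, between copies of ATTGG, the complement of CCAAT. In the Insig1 stretch CACGTG begins 101 bases before the start. The full window of Idi1 holds CCAAT and GC box letters closer to the start, which are not printed because GENCODE places them inside the gene.

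Lipid synthesis RNAs were mostly higher in the BCR-ABL1 lines, and the distance was widest among enzymes that desaturate and elongate fatty acids. By glmTreat of edgeR, which asks for a change beyond 1.5-fold at a false discovery rate (FDR) below 0.05 over all tested genes, 5 members rose (Idi1, Sqle, Scd2, Fads1 and Fads2, 15.6%) and 1 fell (Tm7sf2, 3.12%). Over all tested genes 5.99% rose and 6.49% fell. The other 26 members did not pass. Tested against no change at all instead of 1.5-fold, 20 members were higher (62.5%) and 2 lower, Tm7sf2 and Pmvk, where 22.5% of all genes were higher and 25.9% lower. For 14 members (43.8%) every BCR-ABL1 line lay above every EV line, a pattern seen in 12.1% of all genes, and for Tm7sf2 every BCR-ABL1 line lay below, a pattern seen in 13.5%. The median log2 fold change was 0.47 for the members and -0.02 for all genes. It was positive for 28 members, although Mvk and Sc5d turned to -0.02 and Nsdhl to 0 when lines were scaled by total counts alone, and the members ranged from -0.89 to 2.26.

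**Figure D1:**
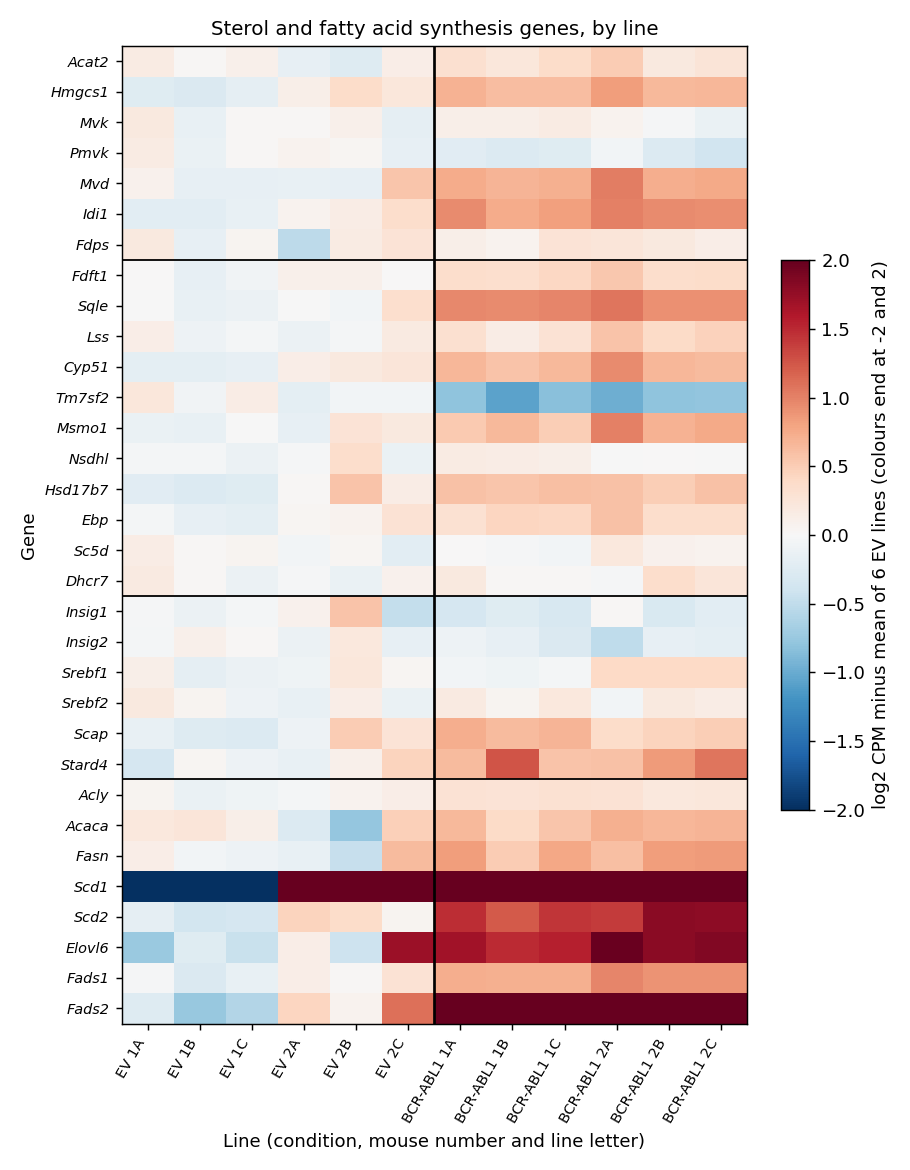
Each cell gives log2 CPM of 1 member (rows, grouped from top to bottom as mevalonate, sterol, regulators and fatty acid) in 1 of 12 lines (columns) minus the mean of the 6 EV lines, with colours ending at -2 and 2. Most rows are redder in the 6 BCR-ABL1 columns, Tm7sf2 is bluer there, and Scd1 is far lower in the 3 EV lines of mouse 1 than in all other lines.

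In the mevalonate segment 1 of 7 enzymes rose and none fell, and the median log2 fold change was 0.31. Idi1 (chr13:8885501-8892451 on GRCm38) makes the isomer of isopentenyl diphosphate that starts chain building. Its level was lowest at 80.5 CPM, 91.3 CPM in the median and highest at 120 CPM in the EV lines, and 157, 179 and 189 CPM in the BCR-ABL1 lines. No BCR-ABL1 line came near the EV lines. The means were 94.7 ± 15.6 CPM (SD, n = 6) and 175 ± 11.6 CPM, a log2 fold change of 0.89 ± 0.10 (SE) or 1.85-fold (FDR = 0.0135). Here and below, the SE comes from the log2 CPM of the lines, unpaired, and is not that of the fitted log2 fold change.

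Hmgcs1, the hydroxymethylglutaryl-CoA synthase, also separated the conditions, from 83.0 to 132 CPM (median 100) among EV lines and from 156 to 181 CPM (median 161) among BCR-ABL1 lines. At a log2 fold change of 0.66 ± 0.12 it was not called beyond 1.5-fold (FDR = 0.413). Mvd, the decarboxylase that yields isopentenyl diphosphate, ranged from 9.56 to 15.8 CPM among EV and from 17.2 to 21.8 CPM among BCR-ABL1 lines, with a log2 fold change of 0.75 ± 0.13 (FDR = 0.197). EV line 2C held the highest EV value, and without it Mvd was called at 0.89 (FDR = 0.00526). The thiolase Acat2 lay at 35.9 to 48.1 CPM for EV and at 49.4 to 61.3 CPM for BCR-ABL1 lines (log2 fold change 0.31). These ranges were apart by little, and a near-identical gene copy, Acat3, may share its reads. The kinases Mvk and Pmvk and the farnesyl diphosphate synthase Fdps had log2 fold changes of 0.05, -0.25 and 0.15, and the conditions overlapped for each. Fdps overlaps another annotated gene on its own strand, so its count is uncertain.

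Among the 11 enzymes from squalene to cholesterol, 1 rose, 1 fell, and the median was 0.39. Sqle, the squalene monooxygenase and a rate-limiting oxygenation of the route (chr15:59315077-59331192), was lowest at 41.4 CPM, 45.0 in the median and highest at 58.4 CPM in EV, and 86.6, 89.3 and 96.4 CPM in BCR-ABL1. The BCR-ABL1 lines lay close together, and the highest EV value was that of line 2C. Sqle rose from 46.4 ± 6.16 to 90.0 ± 3.60 CPM (n = 6 each), 1.94-fold, with a log2 fold change of 0.95 ± 0.08 (FDR = 0.00121).

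Tm7sf2 moved the other way. It encodes a sterol reductase that acts after lanosterol demethylation, a reaction that the lamin B receptor can also carry out. EV lines had 17.4 CPM at the lowest, 19.2 in the median and 23.5 at the highest, and BCR-ABL1 lines had 9.50, 11.3 and 11.6 CPM, so that the conditions did not overlap. The mean fell from 20.1 ± 2.27 to 10.9 ± 0.848 CPM, a log2 fold change of -0.89 ± 0.08 (FDR = 0.00942). Tm7sf2 (chr19:6062821-6068373) overlaps Vps51 on the same strand in GENCODE, and how reads in the shared part were counted is not given in the sources used here.

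The other sterol enzymes were not called. Cyp51, the lanosterol demethylase, had a log2 fold change of 0.68 ± 0.10 (FDR = 0.284), with 73.0 to 98.6 CPM for EV lines and 124 to 161 CPM for BCR-ABL1 lines. Msmo1, the methylsterol monooxygenase of the next step, had 0.68 ± 0.11 (FDR = 0.289), from 40.0 to 54.3 CPM and from 63.5 to 90.2 CPM. Neither gene overlapped between the conditions, and for both the highest value was that of BCR-ABL1 line 2A. Fdft1, the squalene synthase, and Ebp, a sterol isomerase, also did not overlap, at log2 fold changes of 0.39 and 0.40. The conditions overlapped for Lss (0.36), the cyclase that makes lanosterol, for Hsd17b7 (0.54) and Nsdhl (0.06), which act in demethylation, and for Sc5d (0.05) and Dhcr7 (0.14), a desaturase and a reductase of the last steps. For Hsd17b7 the EV line 2B, at 28.0 CPM, lay inside the BCR-ABL1 range of 26.5 to 28.6 CPM, whereas the other EV lines reached at most 20.8 CPM. Genes on the opposite strand overlap Cyp51, Fdft1 and Mvd.

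**Figure D2:**
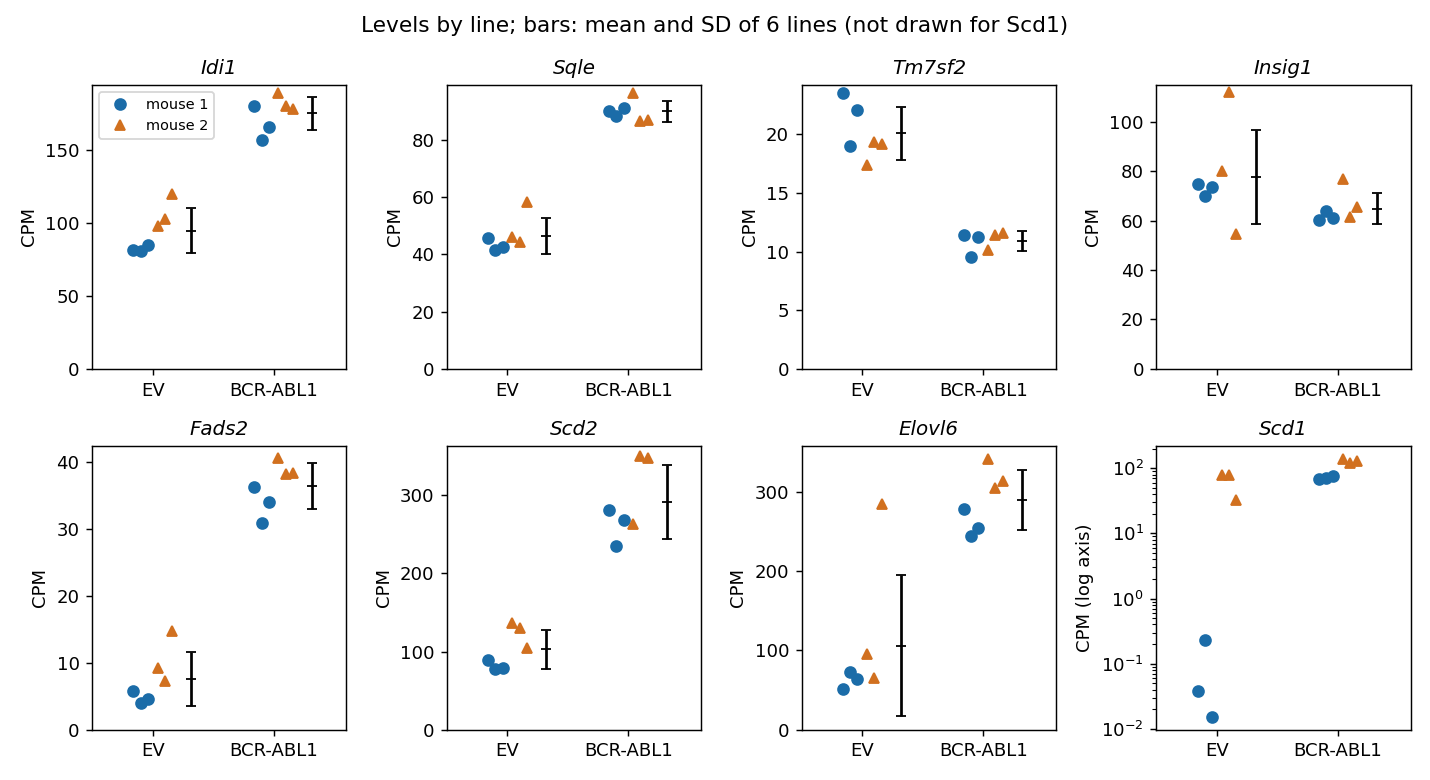
CPM of 8 members by line, with blue circles for mouse 1, orange triangles for mouse 2, and bars for the mean and SD of 6 lines (none for Scd1, whose axis is a log axis). Idi1, Sqle, Fads2 and Scd2 are higher and Tm7sf2 lower in all BCR-ABL1 lines, EV line 2C is the single high EV point of Elovl6, and the EV lines of Scd1 split by mouse.

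No regulator was called, and the median of the 6 was 0.15. The transcription factors Srebf1 and Srebf2 had log2 fold changes of 0.18 ± 0.12 and 0.12 ± 0.07, with levels of 53.0 to 69.6 against 56.3 to 79.1 CPM and of 89.9 to 115 against 96.1 to 116 CPM. The conditions overlapped for both. The retention factors Insig1 and Insig2 were the only regulators with negative values, -0.26 ± 0.15 and -0.24 ± 0.08, and overlapped as well. Insig1 varied most among the EV lines of mouse 2, from 54.6 CPM in line 2C to 112 CPM in line 2B. Stard4, a carrier of sterol between membranes and itself a known SREBP target, spanned 45.9 to 78.5 CPM without and 85.4 to 138 CPM with BCR-ABL1, with no overlap and a log2 fold change of 0.83 ± 0.16 (FDR = 0.113). Without EV line 2C it was called at 0.94 (FDR = 0.0211). Scap had 0.53 ± 0.14 and differed between the mice, as given with the values by mouse.

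The 8 fatty acid genes all had positive log2 fold changes, from 0.26 to 2.26, and 3 of them rose. Their median was 1.13, or 0.81 without Scd1, whose EV lines split by mouse and were near 0 in mouse 1. The genes that pass acetyl-CoA to palmitate were not called. Acly, which frees acetyl-CoA from citrate, lay at 291 to 352 CPM for EV and at 372 to 394 CPM for BCR-ABL1 lines, with no overlap at a log2 fold change of 0.26 ± 0.05. Acaca, the carboxylase, and Fasn, the synthase, had 0.56 ± 0.19 and 0.70 ± 0.16 (FDR = 0.836 and 0.361), and the conditions overlapped only through EV line 2C, at 147 CPM for Acaca and 455 CPM for Fasn. The remaining EV lines reached 125 and 324 CPM. Without line 2C Fasn was called at 0.86 (FDR = 0.0194).

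Scd2 and Fads2 changed most among the called members. Scd2, a stearoyl-CoA desaturase that makes monounsaturated fatty acids (chr19:44293674-44306864), was lowest at 77.9 CPM, 96.8 in the median and highest at 136 CPM in EV, and 235, 275 and 350 CPM in BCR-ABL1. It rose from 103 ± 25.3 to 291 ± 47.4 CPM, 2.83-fold, with a log2 fold change of 1.5 ± 0.17 (FDR = 0.00045). The lowest BCR-ABL1 line stood well above the highest EV line.

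Fads1 and Fads2 encode the front-end desaturases that make polyunsaturated fatty acids and are neighbours on chromosome 19. Fads2 (chr19:10062765-10101746) had 4.03 CPM at the lowest, 6.48 in the median and 14.8 at the highest in EV, and 30.9, 37.2 and 40.6 CPM in BCR-ABL1. It rose 4.79-fold, with a log2 fold change of 2.26 ± 0.29 (FDR = 0.000509), and the EV maximum was again line 2C. Fads1 (chr19:10182888-10196877) had 28.5, 34.6 and 42.3 CPM in EV and 56.8, 60.7 and 68.4 CPM in BCR-ABL1. It rose 1.76-fold, with a log2 fold change of 0.81 ± 0.10 (FDR = 0.0338). The conditions did not overlap for either gene, but the call of Fads1 was lost in 6 of 12 omissions of a single line, namely EV 1B, 1C or 2B or BCR-ABL1 2A, 2B or 2C, with FDR from 0.0523 to 0.0797. It was also lost with total-count scaling (FDR = 0.0645) and by DESeq2 (FDR = 0.12).

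Elovl6 elongates palmitate and is the partner of the stearoyl-CoA desaturases in making oleate. The EV lines had 51.9 CPM at the lowest, 69.3 in the median and 285 at the highest, and the BCR-ABL1 lines 244, 292 and 342 CPM. All EV lines other than 2C were at or below 95.3 CPM, and line 2C lay inside the BCR-ABL1 range. Over all lines the log2 fold change of 1.45 ± 0.37 was not called (FDR = 0.0583). It was called by the likelihood ratio fit that the study used (FDR = 0.0212), with the mouse as a block (FDR = 0.0176) or the line pair (FDR = 0.0172), and without EV line 2C at 2.05 (FDR = 1.34e-05).

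Scd1, the paralog next to Scd2 (chr19:44394455-44407879), split the EV lines by mouse. EV lines 1A, 1B and 1C held 2, 16 and 1 counts, which is 0.0376, 0.231 and 0.0153 CPM, where 3 counts were taken as the floor. EV lines 2A, 2B and 2C had 77.8, 79.3 and 32.4 CPM. BCR-ABL1 lines 1A to 1C had 69.1, 71.4 and 76.0 CPM, and lines 2A to 2C had 141, 122 and 131 CPM. Scd1 RNA was thus at or near the floor in 3 lines and plentiful in 9, and within each mouse all BCR-ABL1 lines lay above all EV lines. The pooled comparison was not called (FDR = 0.703). No fold change is given for mouse 1, because a fitted value against 1 to 16 counts depends on the prior count. Scd2 had 77.9 to 88.9 CPM in the 3 lines that lacked Scd1, so the counts of these paralogs were told apart there.

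The 2 mice were also compared on their own, with 1 fit of 4 group means. In mouse 1, 10 members rose (Hmgcs1, Idi1, Sqle, Cyp51, Scap, Scd1, Scd2, Elovl6, Fads1 and Fads2) and Tm7sf2 fell, against 11.9% and 7.44% of all genes. In mouse 2, Sqle, Scd2 and Fads2 rose and none fell, against 6.25% and 6.66% of all genes. Median log2 fold changes of the members were 0.48 and 0.38. Calls near the threshold rested on single lines. Cyp51 in mouse 1 was lost without BCR-ABL1 line 1A (FDR = 0.0533), Scap in mouse 1 without that line or EV line 1B or 1C (FDR = 0.0529 to 0.0573), and Sqle in mouse 2 without BCR-ABL1 line 2A or EV line 2A or 2B (FDR = 0.0953 to 0.0989). By contrast, 9 members were called in mouse 2 without EV line 2C, a count that was not made over all genes. The difference between the mice itself was called for 3 members (9.38%), below the 16.9% of all genes for which it was called.

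These 3 were Scd1 (FDR = 1.02e-05), Scap (FDR = 0.016) and Hmgcs1 (FDR = 0.0376). In mouse 1 Scap had 70.8 to 76.9 CPM for EV and 133 to 141 CPM for BCR-ABL1 lines, but 79.6 to 121 CPM and 110 to 120 CPM in mouse 2, with log2 fold changes of 0.91 ± 0.05 and 0.19 ± 0.18. Hmgcs1 had 0.88 ± 0.04 in mouse 1 and 0.47 ± 0.09 in mouse 2. Its BCR-ABL1 levels were similar, 156 to 165 and 160 to 181 CPM, and its EV levels were 83.0 to 90.0 and 110 to 132 CPM. The call for Hmgcs1 was lost in 9 of 12 omissions of a single line, with FDR up to 0.102. Sc5d was lower in all BCR-ABL1 lines of mouse 1 (45.9 to 47.5 against 48.4 to 52.7 CPM) and higher in all of mouse 2 (49.8 to 55.0 against 40.9 to 48.7 CPM), a difference that was not called (FDR = 0.104).

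**Figure D3:**
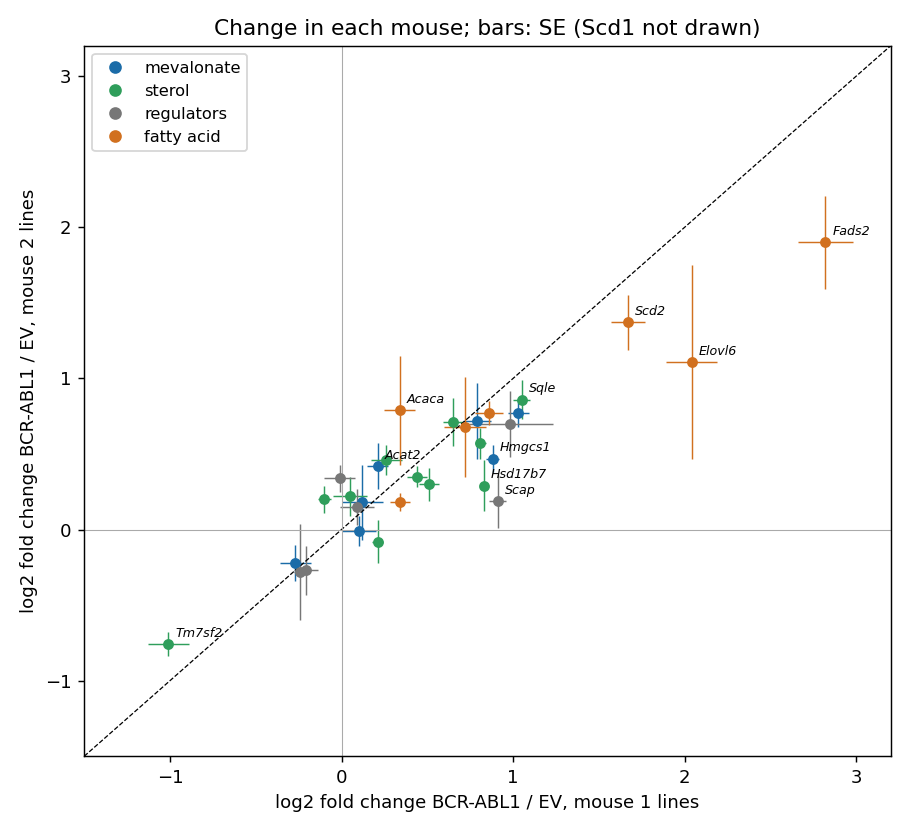
The log2 fold change of BCR-ABL1 over EV in the lines of mouse 1 (horizontal) and mouse 2 (vertical) for 31 members coloured by role, with bars for the SE and a dashed line of equality. Fads2, Elovl6 and Scap lie below the line, at 2.82 and 1.90, 2.04 and 1.11, and 0.91 and 0.19, and Tm7sf2 is negative in both mice, while Acaca lies above the line at 0.34 and 0.79.

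EV line 2C stood apart from the other EV lines. It was the highest EV line for 14 members and the lowest for 6, and it lay inside the BCR-ABL1 range for 9. Without it, 9 members rose and 1 fell, with Mvd, Stard4, Fasn and Elovl6 as the additional calls, and 19 instead of 15 members did not overlap. Leaving out a line can only keep or raise the number without overlap. Neither that number nor the places of line 2C were counted over all genes. Calls over all genes also went up without this line, from 901 higher and 976 lower of 15038 to 1353 and 1434 of 15330, so the gain was not limited to lipid synthesis. Among EV lines of mouse 2 the members varied less (median SD of log2 CPM 0.202) than all genes did (0.325), and both were larger than in the other 3 groups, where the members ranged from 0.069 to 0.105.

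Summed over each role, the levels separated the conditions for mevalonate enzymes (270 to 357 against 435 to 514 CPM), sterol enzymes (357 to 429 against 519 to 615 CPM) and fatty acid genes (868 to 1430 against 1580 to 1970 CPM). The regulators overlapped, at 358 to 487 against 457 to 507 CPM. Per kilobase of exon, Acly was the most abundant member in both conditions, at 60.7 ± 4.44 CPM per kb in EV and 72.9 ± 1.89 in BCR-ABL1, and Fdps the least, at 1.47 ± 0.278 and 1.64 ± 0.0892. On this scale Scd2 stood at place 8 in EV and 2 in BCR-ABL1, Elovl6 at 10 and 4, Fads2 at 31 and 20, and Insig1 at 4 and 9. Places next to each other often did not differ beyond the SD, as for Idi1 (27.0 ± 4.45) and Fasn (27.6 ± 7.56) in EV.

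Neighbouring routes were examined through lists of genes, of which the enzymes that activate and elongate fatty acids had the highest median after the fatty acid members themselves, 0.55 over 14 tested of 17. Acsl1, a long-chain acyl-CoA synthetase, rose from a median of 17.6 CPM (12.3 to 33.9) to 77.2 CPM (69.2 to 78.8), a log2 fold change of 1.96 ± 0.20 (FDR = 0.000134). Hacd1, a dehydratase of the elongation cycle, rose from 2.92 CPM (2.20 to 10.2) to 18.2 CPM (14.2 to 25.1), at 2.02 ± 0.39 (FDR = 0.00872). Their conditions did not overlap. With the mouse as a block, Acsl3, another synthetase, was also called higher (FDR = 0.00424 against 0.0553 without the block), and Acss2, which makes acetyl-CoA from acetate, was called lower (FDR = 0.000827 against 0.134). By glmTreat within mouse 1 and mouse 2, Acsl3 was called higher (FDR = 1.11e-07 and 0.048) and Acss2 lower (FDR = 0.00103 and 0.0176). Acss2 was thus opposite in sign to Acly, the other source of acetyl-CoA examined, with a log2 fold change of -1.69 ± 0.62.

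Of the genes for sterol uptake, storage and efflux, 11 of 13 were tested, with a median of 0.05. Soat1, which esterifies cholesterol for storage, rose from a median of 2.11 CPM (0.563 to 10.9) to 27.8 CPM (23.5 to 39.7), and its EV lines split by mouse, at 0.563 to 0.906 CPM in mouse 1 and 3.32 to 10.9 CPM in mouse 2 (FDR = 0.0266, and 0.000319 for the difference between the mice). Npc2, which carries cholesterol out of lysosomes, rose from a median of 123 CPM (93.2 to 153) to 232 CPM (215 to 298), at 0.97 ± 0.14 (FDR = 0.0146). Nr1h3, an oxysterol receptor that activates efflux genes, fell from a median of 0.636 CPM (0.462 to 1.05) to 0.262 CPM (0.125 to 0.394), at -1.42 ± 0.27 (FDR = 0.0224). This low gene was not called by DESeq2 (FDR = 0.152), without a filter (FDR = 0.0592) or in the lines of mouse 2 alone (FDR = 0.118). With a minimum of 1 CPM in 6 or more lines it was not tested. Npc2, Soat1 and Hacd1 also lost the call in a separate fit of the lines of mouse 2 alone (FDR = 0.0704, 0.109 and 0.147). The fit of 4 group means, used above for Acsl3 and Acss2, shares the spread of all lines. By glmTreat in that fit, Npc2, Soat1, Hacd1 and Nr1h3 were called in mouse 2 (FDR = 0.0153, 0.0197, 0.0252 and 0.0344).

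In fatty acid oxidation 9 of 10 genes were tested, the median was -0.03, and 1 gene fell. This was Cpt1a, which admits long-chain fatty acids to mitochondria, at 77.3 to 105 CPM (median 92.5) in EV and 31.7 to 56.8 CPM (median 40.3) in BCR-ABL1, a log2 fold change of -1.15 ± 0.15 (FDR = 0.00378). No gene was called among 8 for SREBP processing and sterol-dependent degradation (median -0.01) or among 8 of the isoprenoid branch (median -0.02).

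**Figure D4:**
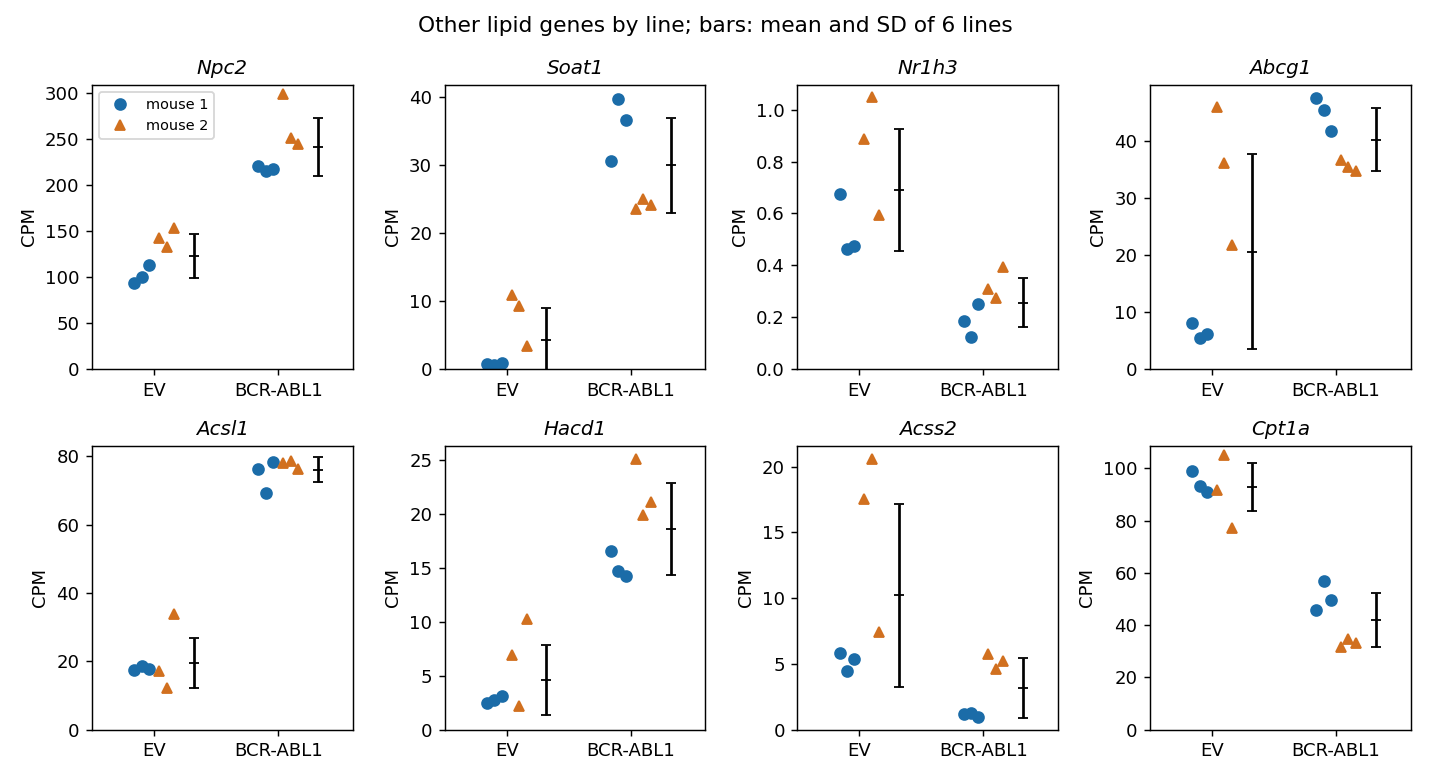
CPM by line of 8 genes of neighbouring lipid routes, with blue circles for mouse 1, orange triangles for mouse 2, and bars for the mean and SD of 6 lines. Acsl1, Hacd1, Npc2 and Soat1 are higher and Cpt1a and Nr1h3 lower in all BCR-ABL1 lines, whereas both the EV lines and the BCR-ABL1 lines of Soat1, Abcg1 and Acss2 split by mouse.

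None of the 10 proliferation genes examined was called beyond 1.5-fold, over all lines or in either mouse. All 10 had positive log2 fold changes over all lines, from 0.08 to 0.65. Tested against no change, 5 were higher (50%, against 22.5% of all genes). For 5 every BCR-ABL1 line lay above every EV line (50% against 12.1%). A difference between the mice was called for 4 (40% against 16.9%). The median log2 fold change of the 10 genes was 0.29, with 0.02 in mouse 1 (from -0.19 for Mcm2 to 0.54 for Ccnb1 and 0.62 for Tyms) and 0.57 in mouse 2 (from 0.34 to 0.77). Their summed level in mouse 1 was 5560 to 5800 CPM for EV and 5710 to 5810 CPM for BCR-ABL1 lines, and 3760 to 4580 and 5870 to 6470 CPM in mouse 2. The part of these genes in the levels of the members was not tested.

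**Figure D5:**
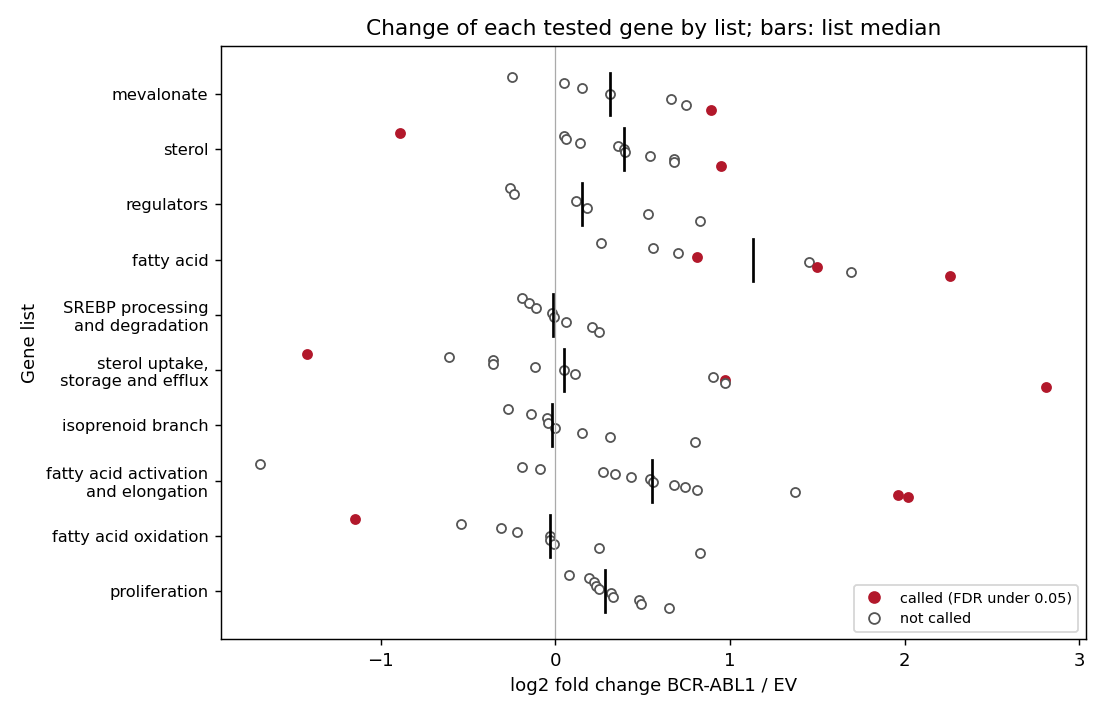
The log2 fold change of BCR-ABL1 over EV (horizontal) for every tested gene of 10 lists (vertical), with filled points for genes called beyond 1.5-fold and black bars for list medians. The fatty acid members have the highest median, 1.13, and the lists of SREBP processing, the isoprenoid branch and oxidation centre near 0.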

How the data were processed

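Stranded libraries were made from total RNA of 6 EV and 6 BCR-ABL1 lines. The authors deposited whole-number counts for 51826 genes, without normalization. The submitters' processing notes name FastQC 0.11.5, Trimmomatic 0.36, TopHat2 2.1.1, Bowtie2 2.3.2, featureCounts 1.5.3, R 3.6.1, edgeR 3.18.1 and GRCm38. The strand and multi-mapping settings of the counting are not given in the sources used here, so counts of overlapping genes and near-identical copies are uncertain.

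Symbols were taken from GENCODE M21 (51633 identifiers matched). In R 4.3.3, edgeR 4.0.16 was used with limma 3.58.1: filterByExpr, TMM, the quasi-likelihood fit and glmTreat against 1.5-fold, Benjamini-Hochberg adjustment over all tested genes and a threshold of 0.05, on all 12 lines without covariates. The study used a likelihood ratio fit, which was run as an alternative. Effects per mouse and their difference (glmQLFTest) came from 4 group means. Alternatives were RLE or total-count scaling, no filter, a minimum of 1 CPM in 6 or more lines, DESeq2 1.42.0, a test against no change, the mouse or the line pair as a block, each mouse alone and each line left out. CPM was scaled by TMM, with a prior count of 2 for log2 CPM. The SE beside a log2 fold change is that of the unpaired difference in mean log2 CPM between the conditions. The log2 fold change itself is the value fitted by edgeR, so the SE is not its own. Scripts were tested on simulated data, and plots used matplotlib 3.10.9 in Python 3.11.15.

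Deviations of EV and BCR-ABL1 lines from their condition means correlated at 0.0853 to 0.24 within a mouse and at -0.203 to -0.0636 between mice. The mouse thus pairs the lines, as the numbers in their names also do. With the mouse removed, lines of the same letter correlated at -0.109 to 0.0856. Depth ran from 34791011 to 66011225 counts per line, 3 counts were taken as the floor, and that floor covers counting error only. p-values measure the spread between lines, of which 3 per condition share an animal. The members and the gene lists were chosen with earlier results of these data known. All members are named, and genes of other lists are named where called or where a result turns on them. Acsl3, Acss2 and Abcg1 were named after their values were seen.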

Additional observations from a re-analysis of the deposited data

Results flagged for a closer look

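Among 64 groups of 6 lines, 8 held a line far from the other 5 by Dixon's criterion, which chance meets in about 1 of 20 groups. EV line 2C was the highest of its group for Mvd (15.8 CPM, the next line 11.4), Sqle (58.4 CPM, next 46.0) and Elovl6 (285 CPM, next 95.3). BCR-ABL1 line 2A was the highest of its group for Hmgcs1 (181 CPM, next 165), Mvd (21.8 CPM, next 18.1), Cyp51 (161 CPM, next 132) and Insig1 (76.8 CPM, next 65.6). EV line 2B was highest for Nsdhl (18.8 CPM, next 14.5).

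A difference between the mice in the change from EV to BCR-ABL1 lines was called by glmQLFTest of edgeR for Hmgcs1 (FDR = 0.0376), Scap (FDR = 0.016) and Scd1 (FDR = 1.02e-05). Scap and Scd1 remained called in all 12 omissions of a single line, with FDR of at most 0.0461 and 0.000105.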

How the results depend on the processing

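Scd2 and Fads2 were called in all 23 alternatives, with FDR of at most 0.0154 and 0.0186. Sqle and Idi1 lost the call only in the lines of mouse 2 alone (FDR = 0.111 and 0.165), and Tm7sf2 there (0.271) and without a filter on low counts (0.105). Fads1 lost it in 9 alternatives, which were 6 omissions, total counts (0.0645), DESeq2 (0.12) and mouse 2 alone (0.131). Against 5 members higher, 20 were higher against no change, 13 in mouse 1 alone, 2 in mouse 2 alone, and 4 to 9 with 1 line left out, where 9 came without EV line 2C. Over all genes the same settings gave, beside 901 higher, 3389, 2512, 614 and 807 to 1353. The likelihood ratio fit gave 6 members higher, with Elovl6 added, and 1 lower. Against 1 member lower, there were 2 against no change, 0 without a filter and in mouse 2 alone, and 1 in every omission. The 11 calls within mouse 1 became 9 to 14 with 1 line left out. The 3 calls within mouse 2 became 5 with RLE scaling or without a filter and 2 to 9 with 1 line left out, and the 3 differences between the mice became 2 to 6, with 6 without EV line 2B or 2C. For these alternatives, calls within each mouse and differences between the mice were not counted over all genes. In omissions that leave 2 lines in a group, spread is shared across groups. With the mouse as a block, 6 members were higher and 1 lower, Elovl6 being the addition; with the line pair as a block, 7 and 1. Apart from Elovl6, Acsl3 and Acss2, the mouse block changed no call reported here. Log2 fold changes turned sign for Mvk (-0.02), Sc5d (-0.02) and Nsdhl (0, at the rounding limit) with total counts, for Nsdhl in mouse 2 alone (-0.07) and for Sc5d in mouse 1 alone (-0.09). Of all values for single members, 686 stayed on their side of the threshold, 32 gained and 13 lost a call, and 5 turned sign; the causes were not tested. Without a filter the median of all genes moved from -0.02 to -0.84. Depth did not limit members other than Scd1, whose EV counts in mouse 1 were near the floor.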
